A study of Mus musculus with 8 samples.

Results

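The 31 genes described here make cholesterol, sense it, move it within the cell or send it out, and they were measured in the dorsomedial hypothalamus (DMH) of mice. They comprise 7 enzymes of the mevalonate pathway, 12 enzymes that turn squalene and its precursors into cholesterol, 5 regulators, 3 genes of intracellular transport, 2 efflux transporters and the 2 liver X receptors. All were among the 55487 gene identifiers in the tables, and all passed the filter on low counts that left 17339 genes for testing. The genes were selected on function, by a choice made with the fold changes of the same 8 libraries already known. The differences between the groups are therefore given as a description, and the tests on single genes say which of them passed the threshold set over all genes.

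The study set a short hairpin RNA against Ppp1r17 (group shPpp1r17), a gene that encodes an inhibitor of protein phosphatases, beside one against firefly luciferase (group shfLuc), which has no target in the mouse genome. The labels call the groups Ppp1r17 knockdown and fLuc knockdown, give 4 libraries in each, and mark the tissue by name as laser-microdissected. They give no strain, age, delivery route of the hairpin or cell type that carried it, and leave unstated whether every library is a different animal. What the p-values weigh is therefore the variation from library to library, part of which may be technical. In bulk tissue, fewer cells of a type and less RNA per cell cannot be told apart.

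The libraries held between 23070147 and 33907984 estimated reads. Ppp1r17 stood at 147, 161, 161 and 171 CPM (the share of a library's reads that fall on the gene, scaled to a common depth) in shfLuc 1 to 4, and at 87.7, 2.07, 3.1 and 87.2 CPM in shPpp1r17 1 to 4. It was near 0 in shPpp1r17 libraries 2 and 3 and at about the same intermediate level in libraries 1 and 4. Over all genes, the first principal component (32.3% of the variance) also set libraries 2 and 3 at one end, so the counts of calls are given with and without them. Among the listed hypothalamic markers, not all of them particular to the DMH, Hcrt averaged 354 CPM in shfLuc. Npvf averaged 64.1 CPM, Gpr50 47.6 CPM, Grp 28 CPM, Prokr2 12.1 CPM, Pomc 9.21 CPM, Sim1 5.61 CPM and Agrp 0.776 CPM. Nr5a1 of the neighbouring ventromedial nucleus averaged 1.02 CPM (0.197 to 2.51), and Avp was at 0 reads in all 4 shfLuc libraries. Some were uneven between shfLuc 1 to 4, as Fezf1 at 9.33, 0.597, 1.28 and 2.08 CPM. Oxt stood at 0.432, 2.81, 7.52 and 3.42 CPM.

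Cholesterol does not cross the blood-brain barrier in quantity, so brain cells make their own. The mevalonate pathway joins acetyl-CoA units into farnesyl diphosphate, squalene synthase couples these into squalene, and a chain of membrane enzymes closes the rings and trims them to cholesterol. When sterols run low in the endoplasmic reticulum, SCAP escorts the transcription factor SREBP2 to the Golgi for cleavage, and its active part binds sterol regulatory elements in the promoters of the synthesis genes. When sterols are plentiful the INSIG proteins hold SCAP back, and oxysterols activate the liver X receptors, which switch on the efflux transporters ABCA1 and ABCG1. In the brain, astrocytes and myelinating oligodendrocytes are heavy producers.

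A few promoters are shown because the CCAAT box and the GC box were in most synthesis genes that had a window. RefSeq promoter windows on GRCm38.p6 were at hand for 25 of the 31 genes, and the 250 bases before the transcription start are given 5′ to 3′ on the gene's own strand. Capitals mark CCAAT (or its reverse complement ATTGG), the letters bound by NF-Y, and the sterol regulatory element TCACNCCAC, which SREBP binds. Hmgcs1 lies at chr13:119690101-119690350 on the plus strand, Msmo1 at chr8:64733579-64733828 on the minus strand, and Nsdhl at chrX:72918271-72918520 on the plus strand. Cyp51 lies at chr5:4104698-4104947 on the minus strand, and the efflux transporter Abca1, shown for contrast, at chr4:53159896-53160145 on the minus strand.
Hmgcs1: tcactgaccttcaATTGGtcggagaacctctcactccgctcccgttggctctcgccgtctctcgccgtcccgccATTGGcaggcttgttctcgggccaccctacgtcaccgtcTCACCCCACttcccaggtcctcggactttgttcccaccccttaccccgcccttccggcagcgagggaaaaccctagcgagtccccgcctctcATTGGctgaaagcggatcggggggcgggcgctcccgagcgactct
Msmo1: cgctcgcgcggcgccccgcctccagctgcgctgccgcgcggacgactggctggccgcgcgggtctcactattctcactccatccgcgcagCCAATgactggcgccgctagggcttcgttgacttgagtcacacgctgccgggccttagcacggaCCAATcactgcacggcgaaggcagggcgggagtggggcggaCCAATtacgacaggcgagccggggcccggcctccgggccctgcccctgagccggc
Nsdhl: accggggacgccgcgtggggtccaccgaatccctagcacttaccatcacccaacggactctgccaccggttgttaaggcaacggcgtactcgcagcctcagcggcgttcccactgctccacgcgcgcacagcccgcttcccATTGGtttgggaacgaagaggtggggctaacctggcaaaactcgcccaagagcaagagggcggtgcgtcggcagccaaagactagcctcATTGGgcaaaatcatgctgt
Cyp51: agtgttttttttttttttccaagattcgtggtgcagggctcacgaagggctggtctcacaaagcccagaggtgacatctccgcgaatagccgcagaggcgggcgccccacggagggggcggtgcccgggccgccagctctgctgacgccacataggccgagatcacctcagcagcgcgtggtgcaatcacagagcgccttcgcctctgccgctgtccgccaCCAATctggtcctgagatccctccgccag
Abca1: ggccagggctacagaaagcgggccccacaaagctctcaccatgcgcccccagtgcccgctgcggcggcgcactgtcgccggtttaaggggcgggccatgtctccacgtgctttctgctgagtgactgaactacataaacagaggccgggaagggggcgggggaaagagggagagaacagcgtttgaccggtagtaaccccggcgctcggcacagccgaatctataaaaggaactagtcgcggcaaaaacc

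The Hmgcs1 window held TCACCCCAC from 137 to 129 bases before the start, with reverse-strand CCAAT boxes that begin 237, 176 and 45 bases before it. Msmo1 had 3 forward CCAAT boxes, which begin 160, 96 and 55 bases before the start. Nsdhl had 2 reverse ones, at 109 and 20 bases, and Cyp51 had 1 forward box at 29 bases. Over both strands, CCAAT was in the window of 15 of 16 synthesis genes and of 5 of the 9 other members with a window, against 37.5% of 27025 genes in the table. The GC box GGGCGG, a binding site of SP1, was in 15 of those 16 synthesis genes and in 7 of the 9 others, against 35.4% of all genes. The E-box CACGTG was in 6 of the 25 members and 6.86% of all genes. In its strict form, TCACNCCAC was found in Hmgcs1 alone among the 25 members and in 1.22% of all genes. A match is a description of letters, not of a bound site, and genes with several starts had several windows, of which any could match. These motifs do not overlap one another in the printed windows.

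Synthesis genes stood higher in shPpp1r17 than in shfLuc, and neither the regulators nor the efflux transporters passed the test. Of the 19 synthesis enzymes, 11 rose and none fell, by edgeR's quasi-likelihood test with Benjamini-Hochberg adjustment over all 17339 genes. With the lysosomal carrier Npc2, 12 of the 31 genes rose, at adjusted p from 0.01 to 0.0353, beside 3.39% of all tested genes. None of the 31 fell, beside 2.66% of all tested genes. At an unadjusted p under 0.05 by the same edgeR test, 18 of the 31 were higher and 1 was lower. Over all tested genes, 3913 of 17339 had such a p in either direction. DESeq2 called 14 higher and 1 lower. The median log2 fold change was 0.57 over the 19 synthesis genes and 0.37 over all 31, beside 0.00427 over all tested genes. In 13 of the 31 genes every shPpp1r17 library lay above every shfLuc library, beside 7.12% of all tested genes, and in 0 of the 31 every one lay below, beside 6.74%.

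**Figure D1:**
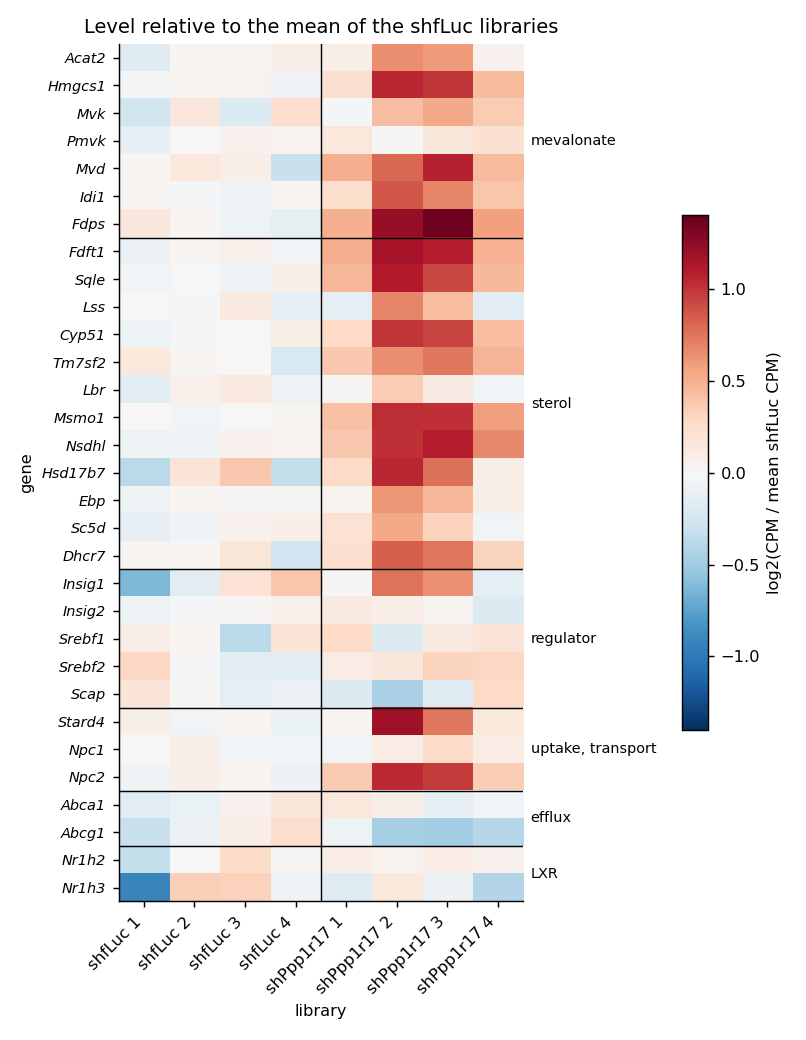
Heat map of each of the 31 genes (rows, by role) in the 8 libraries (columns), as log2 of CPM over the gene's mean CPM in shfLuc, red for higher and blue for lower. Among the synthesis rows shPpp1r17 libraries 2 and 3 are the deepest red, as in Fdps at 2.32 and 2.57 times the shfLuc mean against 1.41 and 1.49 times in libraries 1 and 4.

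The number called depended on which libraries were in the fit. Without shPpp1r17 libraries 2 and 3, edgeR called 4 of the 31 genes higher (Fdps, Fdft1, Sqle and Msmo1), beside 0.144% of 18037 genes tested there. By the same test, 13 of the 31 had an unadjusted p under 0.05 in either direction. The synthesis median was then 0.32, with 17 of the 19 enzymes above 0. Leaving out shfLuc 2 or shfLuc 3 left 0 called by edgeR, with 17 higher at an unadjusted p under 0.05 in each case, while DESeq2 called 12 and 13 there. Leaving out shfLuc 4 left 6, shPpp1r17 2 left 8 and shPpp1r17 3 left 5. Leaving out shPpp1r17 4 gave 16, with Acat2, Hsd17b7, Sc5d and Stard4 added, and leaving out shfLuc 1 brought in Srebf2 (adjusted p = 0.0498). The synthesis median ran from 0.45 to 0.66 over the fits that left out 1 library. For fits that left out libraries, here and below, the share of all genes with an unadjusted p under 0.05 was not counted.

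Of the 7 mevalonate enzymes, 4 rose (Hmgcs1, Mvd, Idi1 and Fdps), and the median log2 fold change of the group was 0.57. Per transcript length, Fdps was the highest of them in shfLuc, at 224 ± 13 TPM, a read share corrected for transcript length (SD, n = 4), and Mvd was the lowest, at 9.26 ± 1.23 TPM. Fdps (ENSMUSG00000059743) makes farnesyl diphosphate, the branch point to sterols, ubiquinone and protein prenylation. It stood at 196, 179, 168 and 161 CPM in shfLuc 1 to 4 and at 248, 409, 451 and 262 CPM in shPpp1r17 1 to 4. All 4 shPpp1r17 libraries were above all shfLuc libraries, libraries 2 and 3 most so, at 2.32 and 2.57 times the shfLuc mean. The log2 fold change was 0.96 (SE 0.17), the largest of the 31 genes.

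Hmgcs1 (ENSMUSG00000093930), the synthase that makes HMG-CoA, was nearly flat across shfLuc 1 to 4, at 339, 354, 357 and 334 CPM. Its values in shPpp1r17 1 to 4 were 404, 719, 692 and 470 CPM. Libraries 2 and 3 were at 2.08 and 2 times the shfLuc mean, and the groups did not overlap (log2 fold change 0.72, SE 0.15). Idi1 (ENSMUSG00000058258), which converts isopentenyl to dimethylallyl diphosphate, went from 79.9, 77, 74.9 and 78.9 CPM in shfLuc to 92.4, 142, 125 and 102 CPM in shPpp1r17. Its lowest shPpp1r17 library, number 1, was above the highest shfLuc library (0.57, SE 0.12). Mvd (ENSMUSG00000006517), the decarboxylase that makes isopentenyl diphosphate, read 10.3, 11.2, 10.8 and 8.18 CPM in shfLuc and 14.4, 17.7, 21.3 and 13.8 CPM in shPpp1r17. Here library 3 was the highest, and the groups again lay apart (0.73, SE 0.16).

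The other 3 mevalonate genes did not pass the threshold. Acat2, the thiolase at the entry of the pathway, was at 154 ± 12.9 CPM in shfLuc and 200 ± 44.1 CPM in shPpp1r17 (SD, n = 4 each), with libraries 1 and 4 inside the shfLuc range. Its log2 fold change was 0.37 (SE 0.13, adjusted p = 0.114). The kinases Mvk and Pmvk had log2 fold changes of 0.34 (SE 0.14) and 0.14 (SE 0.07). Both overlapped between the groups.

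Among the 12 enzymes that follow farnesyl diphosphate, 7 rose (Fdft1, Sqle, Cyp51, Tm7sf2, Msmo1, Nsdhl and Dhcr7), with a group median of 0.58. Fdft1 (ENSMUSG00000021273), squalene synthase and the first enzyme committed to sterols, had the largest difference of the group. It was at 165, 179, 183 and 170 CPM in shfLuc 1 to 4 and at 247, 387, 372 and 245 CPM in shPpp1r17 1 to 4. Libraries 1 and 4 were nearly equal to each other and above every shfLuc library, and libraries 2 and 3 were higher still (0.84, SE 0.14). Sqle (ENSMUSG00000022351) encodes squalene epoxidase, a rate-limiting step of the later pathway. In shfLuc 1 to 4 it gave 86.8, 89.3, 85.6 and 95.5 CPM, and in shPpp1r17 1 to 4 it gave 123, 193, 171 and 122 CPM. The same 2 levels showed within shPpp1r17, with no overlap with shfLuc (0.77, SE 0.13).

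**Figure D2:**
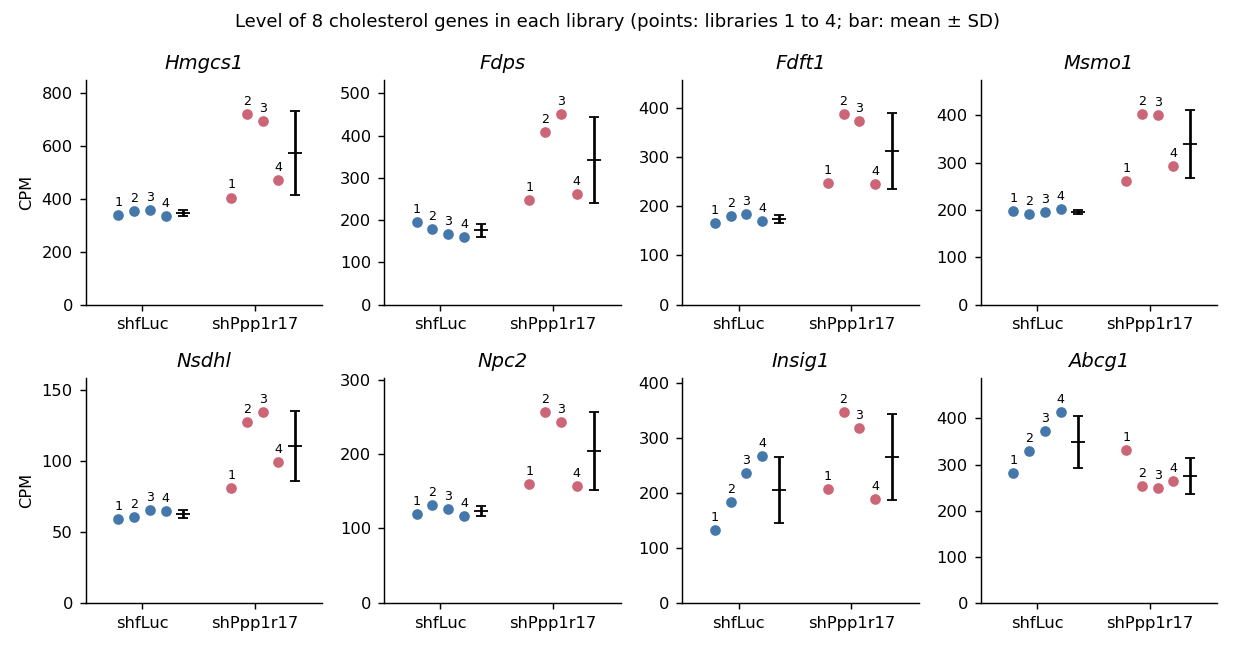
CPM of 8 of the 31 genes on linear axes from 0, each numbered point 1 of the 4 libraries of a group, with the group mean and SD beside them. In the 5 synthesis panels shPpp1r17 libraries 2 and 3 sit above libraries 1 and 4, as in Fdft1 at 387 and 372 against 247 and 245 CPM, while in Abcg1 the groups overlap.

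After ring closure the demethylation enzymes followed the same order of libraries. Cyp51 (ENSMUSG00000001467), lanosterol demethylase, stood at 106, 109, 111 and 117 CPM in shfLuc and at 134, 221, 214 and 149 CPM in shPpp1r17. All 4 shPpp1r17 values exceeded the shfLuc ones (0.70, SE 0.14). Msmo1 (ENSMUSG00000031604), the methylsterol oxidase, had the highest level per transcript length of the sterol enzymes in shfLuc, at 156 ± 2.62 TPM (SD, n = 4). Its CPM in shfLuc was 197, 191, 196 and 202, and in shPpp1r17 it was 261, 403, 400 and 294. The tight shfLuc values and the gap between the groups went with the smallest adjusted p of the 31 genes, 0.01 (0.79, SE 0.12).

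Nsdhl (ENSMUSG00000031349), the sterol dehydrogenase that acts after Msmo1, gave 59.3, 60.4, 65.2 and 64.4 CPM in shfLuc and 80.9, 127, 134 and 99.2 CPM in shPpp1r17. Its groups did not overlap, and library 3 was the highest (0.82, SE 0.13). Tm7sf2 (ENSMUSG00000024799), a sterol reductase, was low throughout, at 11.3, 10.4, 10.2 and 8.77 CPM in shfLuc and 13.2, 16, 16.9 and 14.1 CPM in shPpp1r17. Each shPpp1r17 library exceeded each shfLuc library (0.57, SE 0.13). Dhcr7 (ENSMUSG00000058454), which reduces 7-dehydrocholesterol to cholesterol in the last step, read 34.1, 33.8, 37.4 and 27.5 CPM in shfLuc against 39.1, 59.5, 55.8 and 41.2 CPM in shPpp1r17. Its library 1 was just above the highest shfLuc library (0.56, SE 0.14).

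The remaining 5 sterol enzymes were not called. Hsd17b7, a sterol ketone reductase, had a log2 fold change of 0.59 (SE 0.22), as large as that of called genes but with a spread of 14.4 to 24.4 CPM within shfLuc (adjusted p = 0.125). It was called without the filter on low counts (adjusted p = 0.0479), with a replicate block (0.0274), without shPpp1r17 4 (0.0467) and, at the threshold, by DESeq2 (0.05). Other settings gave Hsd17b7 smaller differences. It came to 0.32 in edgeR with an effective length offset (adjusted p = 0.431) and to 0.19 in limma on log2(TPM + 1) (0.648). In edgeR without shPpp1r17 libraries 2 and 3 it came to 0.17 (adjusted p = 0.778). Ebp, the sterol isomerase, differed by 0.32 (SE 0.12), and its groups did not overlap (31.9 ± 1.01 and 40 ± 7.75 CPM, SD, n = 4 each). Sc5d, Lss and Lbr differed by 0.27, 0.26 and 0.12, with overlapping groups. Lss, the cyclase that makes lanosterol, was at 35.5 and 29.8 CPM in shPpp1r17 libraries 2 and 3, above its shfLuc range of 20.4 to 24.4 CPM, and at 20.2 and 20 CPM in libraries 1 and 4, below it. Lbr, mostly known as a receptor of the nuclear lamina, shares the reductase reaction of Tm7sf2. Without libraries 2 and 3, Lss had a log2 fold change of -0.14 and Lbr of -0.01.

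Within shPpp1r17 nearly all synthesis genes split the libraries into the same pairs. In 18 of the 19 genes, libraries 2 and 3 were both above libraries 1 and 4, a pattern that 22.6% of all tested genes show. The exception was Pmvk, at 147, 134, 148 and 154 CPM. Within the upper pair, library 2 was the highest of the 8 libraries in 13 genes and library 3 in 5. In 12 of the 19 genes all 4 shPpp1r17 libraries exceeded all shfLuc libraries, beside the 7.12% of all tested genes given above. Summed over the 19 genes, shfLuc libraries held 1797 to 1889 CPM. The sums in shPpp1r17 1 to 4 were 2275, 3483, 3397 and 2408 CPM, or 123%, 188%, 183% and 130% of the shfLuc mean. The libraries with the higher sums were the 2 in which Ppp1r17 was near 0, and no cause of that split was tested.

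**Figure D3:**
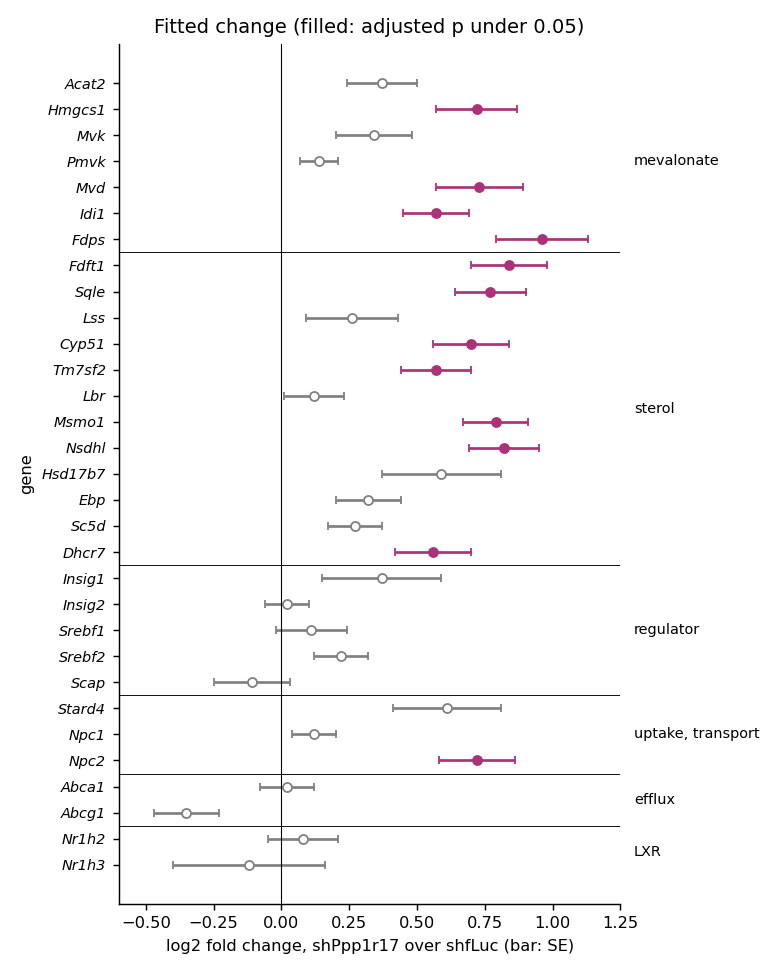
Log2 fold change (shPpp1r17 over shfLuc) of each of the 31 genes by role, with its SE as a horizontal bar, and filled points for an adjusted p under 0.05 in edgeR. The 12 filled points, of which 11 are synthesis enzymes and 1 is Npc2, lie between 0.56 and 0.96, and Abcg1 lies farthest to the left at -0.35.

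None of the 5 regulators was called. Insig1 (ENSMUSG00000045294), the sterol-sensing anchor that is itself a target of SREBP, was the highest per transcript length in shfLuc, at 113 ± 33.7 TPM (SD, n = 4). It was spread widely in shfLuc, at 133, 184, 237 and 268 CPM, and stood at 208, 347, 319 and 189 CPM in shPpp1r17. Libraries 2 and 3 exceeded the shfLuc values, but libraries 1 and 4 lay within them (0.37, SE 0.22, adjusted p = 0.349). Srebf2, which encodes SREBP2, differed by 0.22 (SE 0.10, adjusted p = 0.227), from 45.1 ± 6.77 to 52.6 ± 3.69 CPM (SD, n = 4 each). Srebf1 differed by 0.11 (SE 0.13), Insig2 by 0.02 (SE 0.08) and Scap by -0.11 (SE 0.14). These transcript levels do not show how much SREBP is cleaved.

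Of the 3 genes of intracellular transport, Npc2 rose. Npc2 (ENSMUSG00000021242) is the soluble lysosomal protein that picks up cholesterol from degraded lipoproteins and hands it to the membrane protein NPC1. It gave 120, 132, 126 and 117 CPM in shfLuc 1 to 4 and 160, 256, 243 and 157 CPM in shPpp1r17 1 to 4. All shPpp1r17 libraries lay above the shfLuc range, libraries 2 and 3 most (0.72, SE 0.14). Its partner Npc1 was at 42.8 ± 1.75 and 46.3 ± 4.11 CPM (SD, n = 4 each), a log2 fold change of 0.12 (SE 0.08), with overlapping groups. Stard4, a cytosolic sterol carrier, stood at 28, 25.7, 27.2 and 24.7 CPM in shfLuc and 27.2, 60.3, 44.2 and 29.3 CPM in shPpp1r17. It was high in libraries 2 and 3 and at the shfLuc level in library 1, and missed the threshold (0.61, SE 0.20, adjusted p = 0.0955). DESeq2 called it higher (adjusted p = 0.0268), and without libraries 2 and 3 the log2 fold change was 0.09.

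The 2 efflux transporters and the receptors that control them were not called in either direction. Abcg1 (ENSMUSG00000024030), which loads cholesterol onto lipoprotein particles, was the more abundant transporter per transcript length in shfLuc, at 82.7 ± 14.9 TPM (SD, n = 4). It stood at 281, 329, 372 and 413 CPM in shfLuc 1 to 4 and at 332, 253, 248 and 265 CPM in shPpp1r17 1 to 4. Libraries 2, 3 and 4 of shPpp1r17 lay below every shfLuc library, while library 1 lay inside their range (-0.35, SE 0.12, adjusted p = 0.106). The call turned on the setting, since DESeq2 gave an adjusted p of 0.045 and edgeR without the filter on low counts 0.0427. Leaving out shfLuc 1 gave 0.0373 and leaving out shPpp1r17 1 gave 0.0343. Abca1, which exports cholesterol to lipid-poor apolipoproteins, gave 23.1, 23.9, 26.5 and 28.5 CPM in shfLuc and 28.2, 26.9, 23.6 and 24.8 CPM in shPpp1r17. The 2 groups covered nearly the same range (0.02, SE 0.10).

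Nr1h2, the widely expressed liver X receptor β, was at 10.9, 13.7, 16.4 and 13.9 CPM in shfLuc and 14.7, 14.2, 14.7 and 14.3 CPM in shPpp1r17. Its shPpp1r17 values fell inside the shfLuc range (0.08, SE 0.13). Nr1h3, liver X receptor α, was the scarcest of the 31 genes by TPM in shfLuc, at 3.15 ± 1.28 (SD, n = 4). It gave 1.81, 4.35, 4.32 and 3.3 CPM in shfLuc and 3.05, 3.83, 3.25 and 2.59 CPM in shPpp1r17, again within the shfLuc range (-0.12, SE 0.28).

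Synthesis was then set against efflux in each library. The measure was the mean log2 CPM of Abca1 and Abcg1 minus the mean log2 CPM of the 19 synthesis genes. Its level depends on gene lengths, so it is read only between libraries. The shfLuc libraries 1 to 4 gave 0.48, 0.53, 0.67 and 0.89. The shPpp1r17 libraries 1 to 4 gave 0.43, -0.34, -0.40 and 0.12. The lowest shfLuc library was just above the highest shPpp1r17 library, and libraries 2 and 3 were the lowest of the 8. The group means were 0.64 ± 0.18 and -0.05 ± 0.39 (SD, n = 4 each), a difference of -0.69.

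Most of that difference lay on the synthesis side. The synthesis mean went from 5.91 ± 0.05 to 6.44 ± 0.28 log2 CPM (SD, n = 4 each), a difference of 0.53, with no overlap. The efflux mean went from 6.55 ± 0.19 to 6.39 ± 0.14 (SD, n = 4 each), a difference of -0.16, with overlapping groups. Without shPpp1r17 libraries 2 and 3 the difference in the balance was -0.37.

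**Figure D4:**
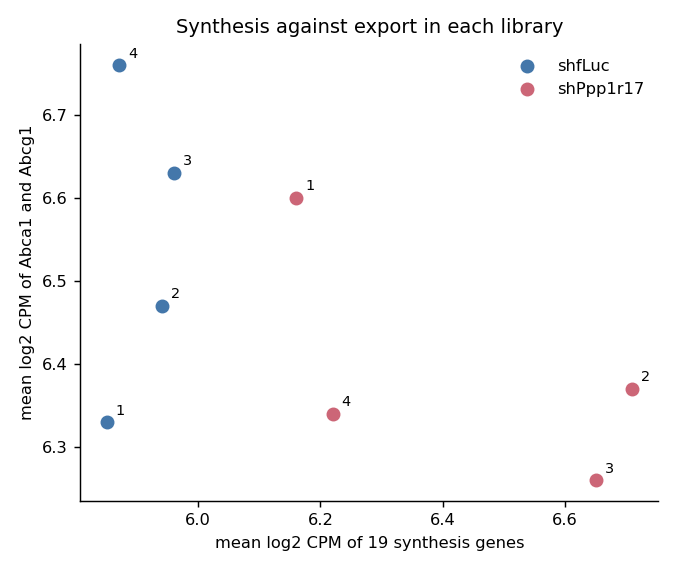
Mean log2 CPM of the 2 efflux transporters (vertical axis) against that of the 19 synthesis genes (horizontal axis), each numbered point a library. The shPpp1r17 points (6.16, 6.71, 6.65 and 6.22 for libraries 1 to 4) lie to the right of all shfLuc points (5.85 to 5.96), while the groups overlap on the vertical axis.

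Of 53 other genes of cholesterol and related lipid metabolism, 52 were tested. Of these, 1 rose and 3 fell, beside 3.39% and 2.66% of all tested genes, counts too small to compare with those shares. Without shPpp1r17 libraries 2 and 3 none of these 4 was called by edgeR (adjusted p from 0.216 to 0.294), and 8 of the 52 had an unadjusted p under 0.05. Tmem97, a sterol-regulated membrane protein that binds NPC1, stood at 37.5, 34.4, 34.4 and 30.6 CPM in shfLuc and 42.7, 68.2, 70.7 and 43.2 CPM in shPpp1r17. It was highest in libraries 2 and 3 without overlap between the groups (0.71, SE 0.16, adjusted p = 0.0227). Nceh1, which hydrolyses cholesteryl esters, fell (-0.41, SE 0.09, adjusted p = 0.0239). So did the sterol transporter Abcg4 (-0.44, SE 0.11, adjusted p = 0.0414) and the fatty acid desaturase Scd1 (-0.26, SE 0.07, adjusted p = 0.0497). None of the 6 genes of SREBP processing, the 9 of the ubiquinone, dolichol and prenylation branches, the 4 electron donors, the 7 of lipoprotein handling or the 2 further liver X receptor targets was called. The 8 genes of fatty acid synthesis had 1 call, Scd1, and a median log2 fold change of 0.03.

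Summed markers of some cell types were high in the same libraries as the synthesis genes. Summed CPM of 12 oligodendrocyte markers in shPpp1r17 1 to 4 was 109%, 168%, 179% and 101% of the shfLuc mean. Of the 12, 4 rose (Mobp, Cldn11, Ermn and Ugt8a), beside 3.39% of all tested genes, and the sums ran from 1343 to 1398 CPM in shfLuc and from 1377 to 2445 CPM in shPpp1r17. For 12 microglial markers the sums were 149%, 207%, 192% and 123% of the shfLuc mean, from 426 to 637 CPM in shfLuc and from 629 to 1061 CPM in shPpp1r17. Of these, 6 rose, among them C1qa, C1qb and Tyrobp. The 5 blood markers all rose, with sums of 181%, 282%, 179% and 146% of the shfLuc mean (328 to 567 CPM in shfLuc, 638 to 1231 CPM in shPpp1r17). Without shPpp1r17 libraries 2 and 3, edgeR called 0 higher in each of these 3 lists. By the same test, 2, 7 and 5 of their genes had an unadjusted p under 0.05 in either direction. The oligodendrocyte median log2 fold change was then 0.19, against 0.61 with all libraries. The microglial median was 0.40 against 0.66, and the blood median 0.74 against 0.99.

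Markers of astrocytes, the other main producers, gave 97%, 104%, 93.8% and 93.2% of the shfLuc mean in sum (3413 to 3825 CPM in shfLuc, 3383 to 3766 CPM in shPpp1r17). Among the 10, Gfap and S100b rose and Slc1a3 fell. Gfap, a filament protein that reactive astrocytes make in quantity, went from 57.8 ± 19.5 to 204 ± 110 CPM (SD, n = 4 each), a log2 fold change of 1.82 (SE 0.33), larger than that of any of the 31 genes. In shPpp1r17 1 to 4 it stood at 2.07, 5.9, 4.26 and 1.91 times the shfLuc mean, again highest in libraries 2 and 3. The 13 neuronal markers gave 97%, 107%, 103% and 98.8% (5112 to 5175 and 4998 to 5518 CPM). Among them 1 rose (Tubb3) and 3 fell (Syt1, Nefl and Slc17a6). Their sum weighs the abundant genes most, and their median log2 fold change was -0.17, with 5 above 0 and 8 below. Endothelial markers summed to 99.2%, 126%, 148% and 110% (137 to 156 and 145 to 217 CPM), with 1 of 8 called, Ly6c1, which rose. The 4 markers of oligodendrocyte precursors and new oligodendrocytes summed to 102%, 126%, 153% and 117% (70.6 to 77 and 74.9 to 112 CPM), and 1 of them, Enpp6, rose. Over all tested genes 3.39% rose and 2.66% fell, and the counts of calls in the astrocyte, neuronal, endothelial and precursor lists are too small to compare with those shares. No marker in the oligodendrocyte, microglial, blood, astrocyte, neuronal, endothelial and precursor lists was at 0 in any library. Without shPpp1r17 libraries 2 and 3, edgeR called none of the astrocyte, neuronal, endothelial and precursor markers higher. By the same test, 5, 6, 1 and 1 of them had an unadjusted p under 0.05 in either direction. Of the neuronal markers 4 then lay above 0, with a median log2 fold change of -0.11. Of the astrocyte markers 4 did, with a median of -0.07. With all libraries, none of 12 tested hypothalamic markers, which include Ppp1r17 itself, was called by edgeR. An unadjusted p under 0.05 was found for 3 of them, beside 3913 of the 17339 tested genes. Without those 2 libraries Ppp1r17 was called lower (adjusted p = 0.00428). The sums of these markers were at 71.5%, 44.4%, 75.2% and 67.8% of the shfLuc mean. They ran from 615 to 783 CPM in shfLuc and from 306 to 518 CPM in shPpp1r17. Hcrt (mean 354 CPM) and Ppp1r17 (160 CPM) were the largest in shfLuc. Part of the fall in the sums is therefore that of the hairpin's own target. In shPpp1r17 1 to 4, Hcrt stood at 0.697, 0.48, 1.05 and 0.566 times the shfLuc mean. Ppp1r17 stood at 0.548, 0.0129, 0.0194 and 0.545 times. Hcrt averaged 247 ± 88.3 CPM in shPpp1r17 (SD, n = 4), and Grp stood at 0.504 and 0.473 times the shfLuc mean in libraries 2 and 3. The part of cell makeup in the synthesis values was not tested.

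**Figure D5:**
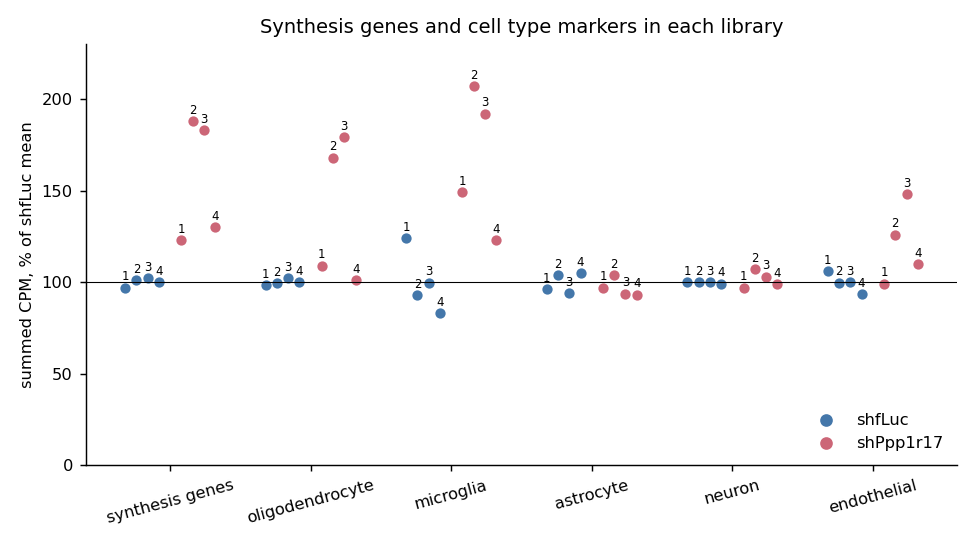
Summed CPM of the synthesis genes and of 5 marker lists, as a percentage of the shfLuc mean (line at 100), each numbered point a library. In shPpp1r17 libraries 2 and 3 synthesis (188% and 183%), oligodendrocyte (168% and 179%) and microglial sums (207% and 192%) stand high, while astrocyte and neuronal sums lie between 93.8% and 107%.

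The 3′ UTRs of the 31 genes were searched for CTCTGATA, a motif derived earlier from the genes that were lower in these same libraries. A match of at least 7 of its bases in a row was in 2 genes, Acat2 and Srebf1, neither of which was called. Among the 14261 tested genes with a 3′ UTR to search, 18.7% held one. The motif came from genes lower in these libraries, and the 31 genes were chosen with their fold changes known. The count beside that share is therefore no test, and no conclusion is drawn from it.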

How the data were processed

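Per the labels' protocols, a PicoPure kit was used to isolate RNA and a SMARTer mRNA kit to build the libraries. Per the file headers, the authors' tables hold for each Ensembl identifier an estimated read count, TPM, length and effective length. DRAGEN, bcl2fastq, limma and edgeR appear in the submitters' processing notes, and their roles, settings and genome build are not given in the sources consulted. Gene symbols were found for 55141 of 55487 identifiers, and the unmatched share of reads reached 0.0319% at most.

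The deposited expected counts, fractional in up to 10.1% of genes, were rounded. edgeR 4.0.16 in R 4.3.3 fitted the group with its quasi-likelihood test, TMM factors, a filter (minimum count 10, minimum total 15) and Benjamini-Hochberg adjustment at 0.05. CPM values are scaled by TMM factors, log2 CPM used a prior count of 0.5, and the SE was derived from the F statistic. The TPM deposited by the authors served for levels between genes and, as log2(TPM + 1) in limma 3.58.1, as an alternative. Other alternatives were DESeq2 1.42.0, voom with sample weights, RLE factors, library totals, no filter, length offsets, a replicate block and leaving out libraries. The script was tested on simulated data. Between libraries of 1 group, chi-square per degree of freedom was 7.46 to 40.2, so each counts as its own library. Reads carry no molecular identifiers, so counting error is a lower limit.

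The members and lists were chosen with earlier results of these data known. Values in every library are given for members past the threshold and for those that lead each role by TPM or fold change, and those of Stard4, Abca1 and the other named examples were added after their values were seen. Motifs were searched in RefSeq promoter windows (GRCm38.p6) and 3′ UTRs of at least 50 bases from GENCODE M21.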

Additional observations from a re-analysis of the deposited data

Results flagged for a closer look

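Ebp in shfLuc 1 stood at 30.4 CPM, apart from 32.3, 32.4 and 32.6 CPM in the other shfLuc libraries. Its distance to the nearest of them was 0.903 of the group's whole range, above Dixon's critical value for 4 samples. Of 62 groups of 4 libraries examined (31 genes in both groups), it was the 1 so marked, and chance marks about 1 in 20. The range of shfLuc is narrow here, and leaving out that library did not bring Ebp past the threshold.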

How the results depend on the processing

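Against 12 members called higher with all libraries, limma on log2(TPM + 1) called 7, the fit without shPpp1r17 libraries 2 and 3 called 4, and fits without 1 library called from 0 to 16 (0 without shfLuc 2 and without shfLuc 3). Against 0 called lower, DESeq2 called 1 and edgeR without the filter called 1, Abcg1 each time, and fits without 1 library called 0 to 1. The synthesis median of 0.57 was 0.32 without shPpp1r17 libraries 2 and 3, and 0.45 to 0.66 without 1 library. The balance of efflux and synthesis (-0.69) was -0.37 without those 2 libraries and -0.85 to -0.57 without 1. With the replicate number as a block (replicate block), 13 members were called higher and 0 lower, with a median of 0.57 and a balance of -0.69. Deviations from the group means of same-numbered libraries had correlations of -0.012, 0.035, 0.006 and 0.116. With 4 libraries in each group, these cannot show whether equal numbers mark pairs. With the offset for gene length and GC content, added after seeing the data, 12 were called higher. The cause of these changes was not tested.

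The sign of some uncalled members turned. With the effective length offset Lss came to -0.14 and Insig2 to -0.08, and with log2(TPM + 1) Lss to -0.24, Insig2 to -0.17 and Abca1 to -0.07, where the median of all genes was -0.06. Without shPpp1r17 libraries 2 and 3 the values were -0.14 for Lss, -0.01 for Lbr, -0.06 for Insig1, -0.03 for Insig2 and 0.06 for Scap. Without 1 library the ranges were -0.03 to 0.08 for Abca1, -0.02 to 0.08 for Insig2, -0.02 to 0.17 for Nr1h2 and -0.33 to 0.01 for Nr1h3.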
